A study of Mus musculus with 3 samples.

Results

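Heart-alone clusters are CELF1 CLIP clusters of the adult mouse heart that share no base, on the same strand, with any cluster of adult muscle or of cultured C2C12 myoblasts. In CLIP-seq a cluster is a run of bases where the reads crosslinked to the protein pile up beyond what the length and expression of the gene would give. The heart list held 42263 clusters, of which 28521 (67.5%) were heart-alone, out of 72222 clusters in all 3 libraries. Muscle had 24844 clusters and C2C12 cells, a line of mouse muscle precursors, had 5115. Among the other 13742 heart clusters, 11973 met a muscle cluster only, 677 met a C2C12 cluster only and 1092 met both. Members were thus chosen by the overlap of cluster positions between the libraries, so the 67.5% is a description.

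The heart ventricle and the muscle came from C57/BL6 mice aged 16 weeks. The myoblasts were grown in culture, and no treatment or transgene is given for any of these libraries. CELF1 was pulled down with the same monoclonal antibody, 3B1, after crosslinking with UV light at 254 nm. Each source gave 1 library, so no difference has a replicate check, the number of pooled animals is not given, and every interval and p-value compares clusters of these libraries and covers counting error only. The cluster lists carry no read counts. The study gives the same rounded number of mapped reads for the heart and C2C12 libraries, and a larger number for heart than for muscle. A cluster present in heart and missing in muscle may therefore fall below the calling threshold in muscle, and the part of read depth in the heart-alone counts was not tested. In such lists lower expression, fewer cells of a type, less RNA per cell and weaker binding of a gene cannot be told apart.

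CELF1 (CUGBP1) is an RNA-binding protein that prefers UGU-containing, GU-rich sequences. In the nucleus, where introns are still present, it acts on the choice of exons. In the cytoplasm it binds the 3' UTRs of mRNAs and promotes their deadenylation and decay. Its level in heart and skeletal muscle falls after birth, and its rise in myotonic dystrophy is linked to a return of fetal splice forms.

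The following sequences are shown because they are heart-alone sites of the genes that held the most of them. Each is a 30-base window of 1 cluster, read on the transcribed strand of the NCBIM37 (mm9) genome, with every UGU in capitals, counted with overlaps. For leading genes of both main rankings the cluster with the most UGU is shown, and for Ryr2, Cacna1c and Pde4d a cluster with a typical number of UGU as well.
Ryr2 intron, chr13:11789316-11789345, minus strand: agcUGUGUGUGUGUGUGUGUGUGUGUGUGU
Ryr2 intron, typical, chr13:11651566-11651595, minus strand: uaUGUGUuaguuaUGUcugguaacucaUGU
Corin intron, chr5:72753656-72753685, minus strand: gUGUGUGUGUGUGUGUGUGUGUGUGUGUGU
Zfpm2 intron, chr15:40585559-40585588, plus strand: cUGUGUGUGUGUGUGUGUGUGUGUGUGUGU
Cacna1c intron, chr6:119073418-119073447, minus strand: aUGUauaUGUGUGUGUGUGUuUGUGUGUGU
Cacna1c intron, typical, chr6:118590571-118590600, minus strand: agauuaacUGUGUGUauaUGUgcuuuucaa
Ctnna3 intron, chr10:63500233-63500262, plus strand: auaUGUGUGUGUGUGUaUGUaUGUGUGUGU
Pde4d intron, chr13:109697178-109697207, plus strand: gUGUGUGUGUGUGUGUGUGUGUGUGUGUGU
Pde4d intron, typical, chr13:109504270-109504299, plus strand: ucucUGUcucucucucucucuUGUGUaUGU
Auts2 intron, chr5:132357568-132357597, minus strand: aUGUGUcUGUcUGUcUGUGUcucUGUGUGU
The richest windows were near-unbroken UG repeats, with 13 UGU in the Ryr2 window and 14 in those of Corin, Zfpm2 and Pde4d. The typical windows of Ryr2, Cacna1c and Pde4d held 4 UGU each, spread among other bases.

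Heart-alone clusters lay in 6294 of the 6857 genes with a heart cluster (91.8%). Of those 6294 genes, 2254 (35.8%) had no muscle cluster at all, close to the 33.3% of all genes with a heart cluster. They held 6315 heart-alone clusters, 22.1% of the total, a share that became 33.4% when genes with a single muscle cluster were counted with them (exact Clopper-Pearson 95% intervals are used for shares of clusters). The other 4040 genes also had a muscle cluster and held 22206 heart-alone clusters, 77.9% of the total, beside 84.7% of all heart clusters (35794 of 42263). In 848 of these muscle-bound genes every heart cluster was heart-alone, with 2479 clusters between them, and in 3192 genes heart-alone and other heart clusters stood side by side. Of the genes without a muscle cluster, 370 had a C2C12 cluster in the gene and 1884 had clusters in heart only.

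Genes without a muscle cluster mostly held few sites. Exactly 1 heart-alone cluster was found in 1102 of the 2254 genes without a muscle cluster (48.9%) and in 964 of the 4040 with one (23.9%), and the medians were 2 and 3 clusters per gene. At least 10 were found in 83 genes without and in 564 genes with a muscle cluster. The annotated gene bodies had median lengths of 27.8 kb without and 47.8 kb with a muscle cluster. The part of gene length in these numbers was not tested.

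Cluster positions were not always clear-cut. Just inside the limit of the rule, 456 heart-alone clusters had a muscle or C2C12 cluster 10 nt away or less on the same strand, and just outside it, 321 other heart clusters shared no more than 10 nt with one. A further 1401 heart-alone clusters had one at 11 to 50 nt and 1072 at 51 to 100 nt. No cluster of muscle or C2C12 lay within 1000 nt of 20677 heart-alone clusters (72.5%), a share of 96.3% in genes without a muscle cluster and 65.7% in genes with one. The 96.3% is largely set by the split. In those genes only 1 heart-alone cluster had a muscle cluster within 1000 nt. The authors list a cluster once for each gene it falls in, so 321 heart-alone entries shared 32 positions. Of these entries, 296 were 21 positions repeated across 22 genes of the protocadherin gamma family, whose genes overlap on chromosome 18.

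Marker genes were counted next. Their numbers are to be read beside the 67.5% of all heart clusters that were heart-alone. Likewise, 33.3% of all genes with a heart cluster had no muscle cluster. The 8 genes listed as ventricle markers, several of which the atria also express, all had heart clusters, and 314 of these 319 clusters were heart-alone, or 62 of 67 without Ryr2. Muscle had 5 clusters in 3 of them, Actc1, Myl3 and Tnnt2, and C2C12 cells had 0. All 12 genes listed as skeletal muscle markers had a muscle cluster. Of these, 7 had a heart cluster, and 2 of their 20 heart clusters were heart-alone, in Acta1 and Ckm, against 168 muscle clusters. Ryr1, the ryanodine receptor of skeletal muscle, had 2 heart clusters, both met by muscle clusters, and 49 muscle clusters. Markers of other cells of the heart were also bound. Endothelial markers had 60 heart-alone clusters among 73 (82.2%), led by Erg (20), Flt1 (14) and Ptprb (13). Of these 7 genes, 2 had no muscle cluster, Cdh5 and Tek, not above the share over all genes. Fibroblast markers had 3 heart-alone clusters among 5, smooth muscle and pericyte markers 8 among 18 (with 0 among 7 in Rgs5), macrophage markers 7 among 8 and Schwann cell markers 3 among 3, all in Cdh19. Of 5 atrial markers, Bmp10 and Sln had 1 heart-alone cluster each and Myl7, Nppa and Myl4 had no heart cluster. Epicardial and adipocyte markers had none, and of the erythroid markers Alas2 had 1. The part of these cell types in the heart-alone list was not tested.

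Among genes without a muscle cluster, Ryr2 stood far ahead. Ryr2 encodes the calcium release channel of the cardiac sarcoplasmic reticulum (Entrez 20191, chr13:11645370-12199212, minus strand). It had 252 heart clusters, all heart-alone, and 0 in muscle and 0 in C2C12 cells. They were spread from 1.26 kb to 553 kb from the gene start, over 239 intronic sites in 41 introns, 12 in coding exons and 1 in the 3' UTR. A single intron of 160 kb (chr13:12038270-12198665) held 120 of them. The UG repeat window printed above is one of the intronic sites.

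The next genes had far fewer. Corin, for the protease that processes atrial natriuretic peptide, had 52 heart-alone clusters, 44 of them in introns and 7 in the 3' UTR, against 0 in muscle and 1 in C2C12 cells. Cdh2, for N-cadherin of the intercalated disc, had 44 heart-alone clusters with 32 in 1 intron, against 0 in both others. Zfpm2, for the GATA partner FOG2, likewise had 44 heart-alone clusters, all intronic, of 49 in heart, against 0 in muscle and 7 in C2C12 cells. Its other 5 heart clusters met C2C12 clusters. It alone among the 10 leading genes had heart clusters that were not heart-alone.

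Of the remaining leaders, Nckap5 and Rgs6, for a regulator of G-protein signalling, had 41 each. Erbb4, for the neuregulin receptor, had 36, all intronic. The kinase gene Stk39 had 34. Kcnj3, for a subunit of the acetylcholine-activated potassium channel, had 29, with 26 in 1 intron. The 10 leading genes together held 626 heart-alone clusters, 9.91% of those in genes without a muscle cluster. The bars of clusters per gene show these numbers beside those of the muscle-bound leaders.

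**Figure D1:**
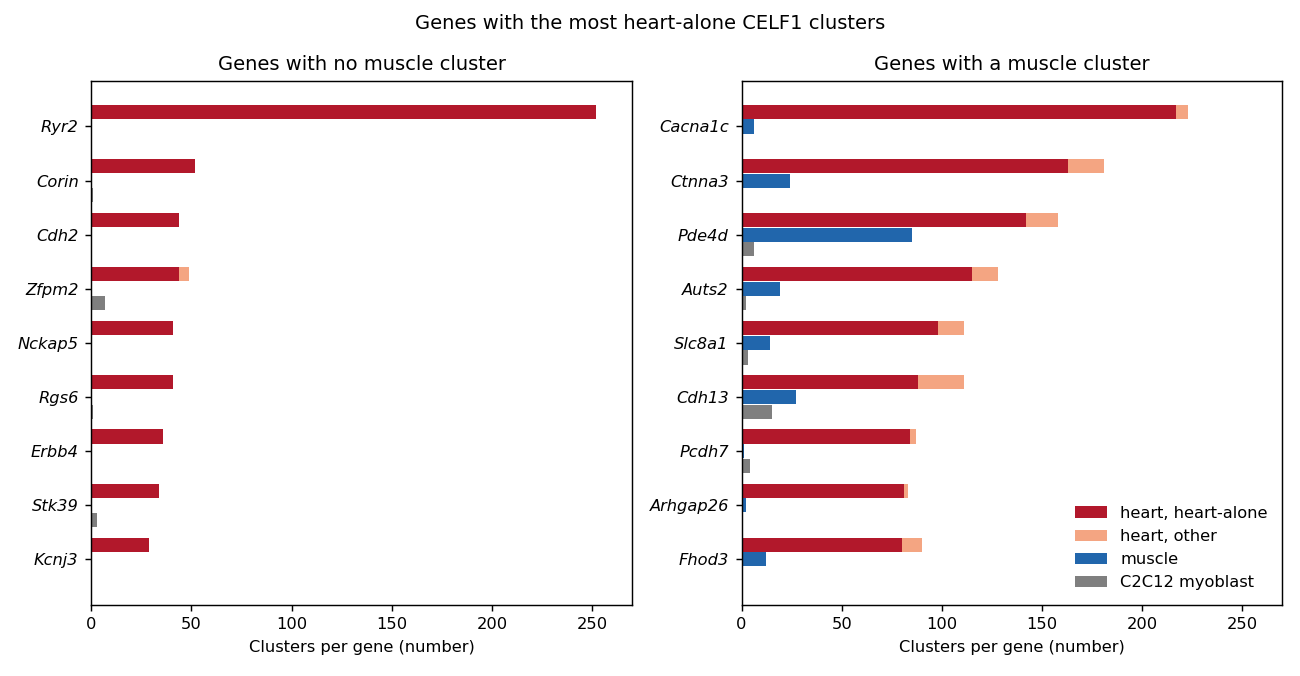
Number of CELF1 clusters per gene (x axis) in 9 of the 10 genes with the most heart-alone clusters among genes without a muscle cluster (left) and 9 of the 10 with one (right). The upper bar of each gene is heart, split into heart-alone and other heart clusters, the middle bar is muscle and the lower bar C2C12 myoblasts, with 1 library each. Ryr2 reached 252 heart-alone clusters with 0 in muscle and Cacna1c 217 with 6 in muscle, while Pde4d had 142 heart-alone clusters and 85 muscle clusters.

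Among muscle-bound genes, Cacna1c led. It encodes the pore subunit of the cardiac L-type calcium channel (Entrez 12288, chr6:118542314-119146249, minus strand). It had 223 heart clusters, 6 muscle clusters and 0 C2C12 clusters. Each of the 6 muscle clusters met a heart cluster, and the other 217 heart clusters were heart-alone, 208 of them intronic. One intron of 272 kb held 125 heart-alone and 4 muscle clusters, and the intron of 139 kb nearest the gene start held 58 heart-alone clusters and 0 muscle clusters.

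Ctnna3, for alpha-T-catenin of the intercalated disc, had 163 heart-alone clusters of 181, against 24 in muscle and 0 in C2C12 cells. Of the 24 muscle clusters, 18 met a heart cluster. Muscle and heart-alone clusters of Ctnna3 lay in the same stretches, with 79 heart-alone and 10 muscle clusters in an intron of 398 kb and 37 and 12 in an intron of 238 kb.

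Pde4d, for a cAMP phosphodiesterase with several promoters (Entrez 238871, chr13:109240142-110743669, plus strand), showed another layout. It had 158 heart clusters, 85 muscle clusters and 6 C2C12 clusters, all intronic in heart and muscle. The 142 heart-alone clusters had a median position of 443 kb from the gene start, against 1325 kb for the muscle clusters. The first muscle cluster lay at 992 kb. Before it lay 133 heart-alone clusters, the last of them at 833 kb, and past it the remaining 9. A pair of neighbouring introns of 206 kb and 172 kb held 53 and 73 heart-alone clusters with 0 muscle clusters in either. The 16 other heart clusters lay between 1173 and 1456 kb, within the range of the muscle clusters, and 69 muscle clusters met no heart or C2C12 cluster. The gene maps show the break between both sets.

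**Figure D2:**
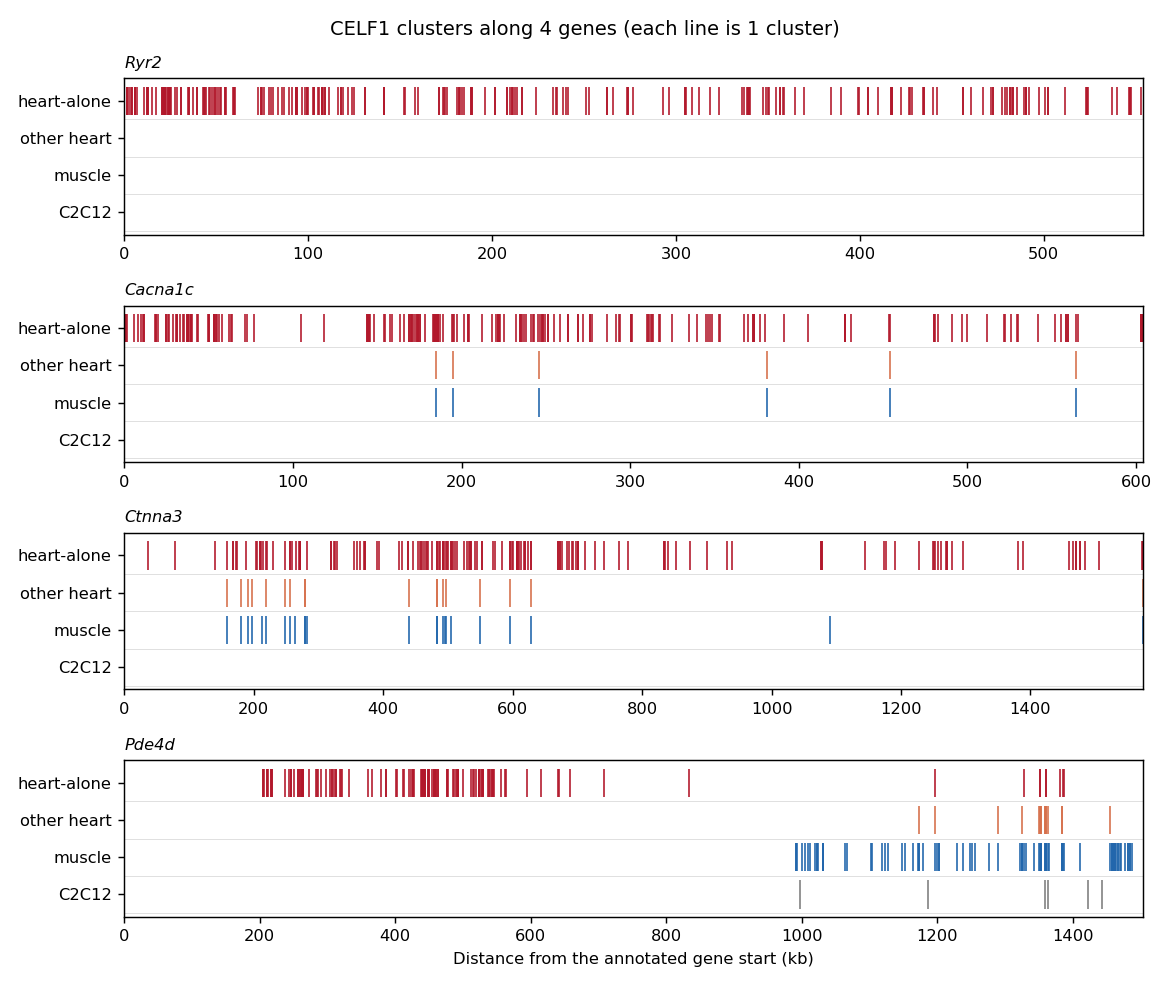
Positions of CELF1 clusters along Ryr2, Cacna1c, Ctnna3 and Pde4d, in kb from the annotated gene start (x axis, scaled to each gene). Each vertical line is the midpoint of 1 cluster, in rows for heart-alone, other heart, muscle and C2C12 clusters. In Pde4d 133 of the 142 heart-alone clusters lie before the first muscle cluster, whereas in Ctnna3 heart-alone and muscle clusters share the same stretches and in Ryr2 the heart-alone row is the only filled one.

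This layout was uncommon. Among 575 genes with a heart-alone cluster and at least 10 muscle clusters, 83.5% of 7110 heart-alone clusters lay between the first and the last muscle cluster, 12.9% before the first and 3.59% after the last. Per gene, the median share before the first was 2.86%. At least 30 heart-alone clusters before the first muscle cluster were found in 2 genes, Pde4d and its relative Pde4b (both chosen after their values were seen). Pde4b had 30 heart-alone clusters, all before the first of its 14 muscle clusters. Rbfox1, for a splicing regulator, had 18 of its 22 heart-alone clusters there. Genes with fewer than 30 heart-alone clusters cannot reach that number. Some of them still had most of theirs before the first muscle cluster, such as Hipk3 (9 of 11) and Tgfbr3 (10 of 13), chosen after their values were seen.

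The other leaders of this ranking had between 1 and 27 muscle clusters. Auts2 had 115 heart-alone clusters of 128, against 19 in muscle. Slc8a1, for the cardiac sodium-calcium exchanger, had 98 of 111, against 14 in muscle, with 41 in 1 intron of 202 kb and 28 outside its annotated exons and introns. Cdh13, for T-cadherin, had 88 of 111, against 27 in muscle and 15 in C2C12 cells. Pcdh7 had 84 of 87 and Arhgap26 81 of 83, against 1 and 2 in muscle. Fhod3, for a formin that organizes cardiac sarcomeres, had 80 of 90, against 12 in muscle. In 6 of the 10 leaders at least 1 muscle cluster met no heart or C2C12 cluster.

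Some muscle-bound genes had not a single heart cluster in common with muscle or C2C12 cells. Kcnd2, for the channel of the transient outward potassium current, had 57 heart clusters, 52 of them in 1 intron of 497 kb, which also held its 1 muscle cluster. Cacnb2, for the auxiliary subunit of the L-type channel, had 55 against 1 in muscle and 1 in C2C12 cells. Fhit had 21 against 2 in muscle, Erg, an endothelial transcription factor, 20 against 2, and Hivep3 17 against 1. In Cacnb2 the first heart-alone cluster lay 39.4 kb from the gene start, beside the muscle cluster at 39.3 kb.

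Several genes with many clusters held both heart-alone clusters and muscle clusters without a match. At least 10 heart-alone clusters and at least 10 muscle clusters that met neither heart nor C2C12 were found in 48 genes. After Pde4d the highest heart-alone numbers among them were in Dmd, for dystrophin, Ttn and Rora. Heart-alone were 78 of 150 heart clusters in Dmd (52%), 59 of 184 in Ttn (32.1%) and 54 of 104 in Rora (51.9%). These 3 shares were below the 67.5% of all heart clusters, whereas Pde4d had 89.9%. Muscle clusters that met neither heart nor C2C12 numbered 43 of 119 in Dmd, 53 of 177 in Ttn and 27 of 76 in Rora. Over all muscle clusters they were 11486 of 24844. Rora had 50 heart-alone and 72 muscle clusters in the same intron of 542 kb.

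Heart-alone clusters differed from the other heart clusters in the part of the gene they occupied. Introns held 19735 of the 28521 heart-alone clusters, 69.2% (68.7% to 69.7%), against 5066 of 13742 other heart clusters, 36.9% (36.1% to 37.7%). The difference was 32.3 percentage points, with an odds ratio of 3.85. In 3' UTRs the order was turned round, with 21.6% of heart-alone clusters (21.1% to 22.1%) against 56.6% of the others (55.8% to 57.4%) and an odds ratio of 0.212. Both p-values of the two-sided Fisher's exact tests were too small to be computed. They treat clusters as independent, which clusters of 1 gene are not. With 1 cluster of each kind per gene the odds ratio was 2.21 for introns and 0.319 for 3' UTRs, and stratified by gene, over 3280 genes, 3.59 and 0.194. A shift in the same direction was seen in muscle, so it is not particular to heart. Of the 11486 muscle clusters that met no heart or C2C12 cluster, 51.85% were intronic and 41.17% in 3' UTRs. Over all muscle clusters these shares were 43.23% and 50.1%.

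Put the other way, 79.6% of intronic heart clusters (79.1% to 80.1%) were heart-alone, 75.8% of those in coding exons, 71.4% of those in 5' UTRs and 44.2% of those in 3' UTRs (43.4% to 45.0%), beside 67.5% of all heart clusters. The heart list held 24801 clusters in introns and 13943 in 3' UTRs, against 10739 and 12446 in the muscle list. The part of these unequal numbers in the shares was not tested.

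Among heart-alone clusters, those in genes without a muscle cluster were somewhat less often intronic, at 64.4% (63.2% to 65.5%), than those in genes with one, at 70.6% (70.0% to 71.2%). The difference was -6.22 percentage points and the odds ratio 0.753 (two-sided Fisher's exact test, adjusted p = 1.43e-20 over 5 tests). Coding exons held 8.19% and 5.97% of these sets and 3' UTRs 25.7% and 20.5%. The split is by gene, so all clusters of a gene fall on the same side, yet the test treats them as independent. No version with 1 cluster per gene was run for it. Median gene lengths were 27.8 kb without and 47.8 kb with a muscle cluster, and the part of length was not tested. The bars of gene parts show both sets beside the other heart clusters.

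**Figure D3:**
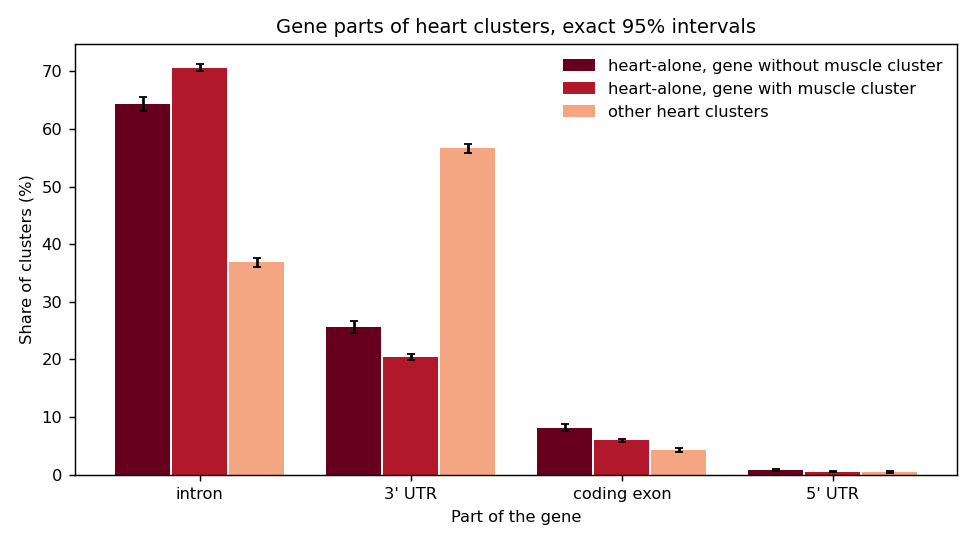
Share of clusters (y axis, %) in introns, 3' UTRs, coding exons and 5' UTRs for heart-alone clusters in genes without a muscle cluster (6315), heart-alone clusters in genes with one (22206) and the other heart clusters (13742). Error bars are exact 95% intervals. Both heart-alone sets stand at 64.4% and 70.6% in introns and the other heart clusters at 36.9%, while in 3' UTRs the other heart clusters are highest at 56.6%.

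Intronic heart-alone sites were mostly far from exons. The median distance to the nearest splice site was 4004 nt, against 3406 nt for the other intronic heart clusters, and 11.7% (11.2% to 12.2%) lay within 300 nt of one, against 13.8% (12.8% to 14.7%). Introns of at least 50 kb held 32.1% and 29.5%. Among the leaders within 300 nt of an exon, named after their values were seen, were Ryr2 with 22 heart-alone clusters, Ttn with 20 and Cacna1c with 13, out of 1518 genes with such a cluster. In muscle-bound genes, 7031 of 15671 intronic heart-alone clusters (44.9%) lay in an intron without any muscle cluster and the other 8640 in an intron that muscle clusters also occupied. In 1171 genes whose muscle clusters were all in the 3' UTR, 1286 of 3480 heart-alone clusters (37.0%) were intronic. The intronic share over all muscle-bound genes was 70.6%. In 1021 genes whose muscle clusters were all intronic, 456 of 6117 heart-alone clusters (7.45%) were in the 3' UTR, beside 20.5% over all muscle-bound genes.

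Heart-alone clusters in mRNA sequence had leaders of their own. In 3' UTRs these were Nfia, for a transcription factor of the nuclear factor I family, with 15, Kcnk3, for the potassium leak channel TASK-1, with 14, and the cell cycle gene Ccnd2 and the GTPase regulators Ralgapa2 and Rap1gap2 with 13 each, a number that Sptbn1 shared. Nfia had 17 muscle clusters in its 3' UTR and Ccnd2 had 4. Kcnk3 had 17 heart clusters, all heart-alone, and 0 in muscle and 0 in C2C12 cells. In coding exons the leaders were Ttn with 30, beside 79 muscle clusters in coding exons, Atp2a2, for the calcium pump of the cardiac sarcoplasmic reticulum, with 16 beside 5, Ryr2 with 12, Myh6, for the alpha heavy chain of cardiac myosin, with 10 and Pam, for a peptide-amidating enzyme, with 8, the last 3 beside 0. Pcnx and Slc8a1 also had 8. In 5' UTRs the numbers were low, with 3 in BC005537 and 2 each in 17 genes, of which Cd36, Dach1, Ddx39b and Dhrs3 are the first by name. A window from the leading gene of each mRNA part, taken like the intronic ones, held 7 UGU in Nfia, 4 in Ttn and 3 in BC005537.
Nfia 3' UTR, chr4:97783818-97783847, plus strand: uUGUGUGUGUuuucauuuuuuUGUUGUUGU
Ttn coding exon, chr2:76568489-76568518, minus strand: agaacauggucUGUUGUGUcacacaagUGU
BC005537 5' UTR, chr13:24894831-24894860, plus strand: uuucaaggauuggaccggUGUcagcUGUGU

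Nearly all heart-alone clusters held the core motif UGU, 27934 of 28521 or 97.9% (97.8% to 98.1%), against 99.0% (98.9% to 99.2%) of the other heart clusters (odds ratio 0.465, two-sided Fisher's exact test, adjusted p = 2.44e-17). The odds ratio was 0.292 among intronic clusters alone (p = 8.23e-08), 0.299 among 3' UTR clusters alone (p = 4.06e-26) and 0.347 with 1 cluster of each kind per gene (p = 1.24e-10, each a two-sided Fisher's exact test). Heart-alone clusters were narrower, with a median of 52 nt against 66 nt. Within classes of like width, added after the data were seen, the shares were 95.71% and 96.65% at 35 to 39 nt, 97.8% and 97.7% at 40 to 49 nt, 98.25% and 98.71% at 50 to 59 nt, 98.9% and 99.4% at 60 to 79 nt, and 99.5% and 99.8% at 80 nt and above. The p-values of these classes were 0.306, 0.932, 0.127, 0.00826 and 0.073 in the same order (two-sided Fisher's exact tests, not adjusted), so the call held in 1 of 5 classes and the order was turned round at 40 to 49 nt. The part of width in the difference was not tested further. The share did not differ detectably between heart-alone clusters in genes without (98.0%) and with (97.9%) a muscle cluster, with a difference of 0.121 percentage points (adjusted p = 0.581, two-sided Fisher's exact test). A lower share was also seen in muscle, where it was not tested. There UGU was held by 97.7% of clusters that met no heart or C2C12 cluster and by 98.36% of all muscle clusters.

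The density of the motif, given as a description, depended on the gene part. Over all clusters UGU occurred 9.39 times per 100 nt in heart-alone clusters and 7.83 times in the others. Within introns the order was turned round, with 11.3 against 11.9 per 100 nt, and likewise within 3' UTRs with 5.31 against 5.77 and within coding exons with 4.36 against 4.56. Runs of UGUGUGUG were found in 17.9% of heart-alone (17.4% to 18.3%) and 12.9% of the other clusters (12.4% to 13.5%). UGUU, which overlaps UGU, was found in 57.1% and 68.2%. Such shares depend on width, and heart-alone clusters were narrower. Per 100 nt, UGUU occurred 2.018 times in heart-alone and 2.095 times in the other clusters, and UGUGUGUG 1.548 and 0.796 times. Neither of these 2 motifs was split by width or gene part. All motifs were searched on the transcribed strand only.

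**Figure D4:**
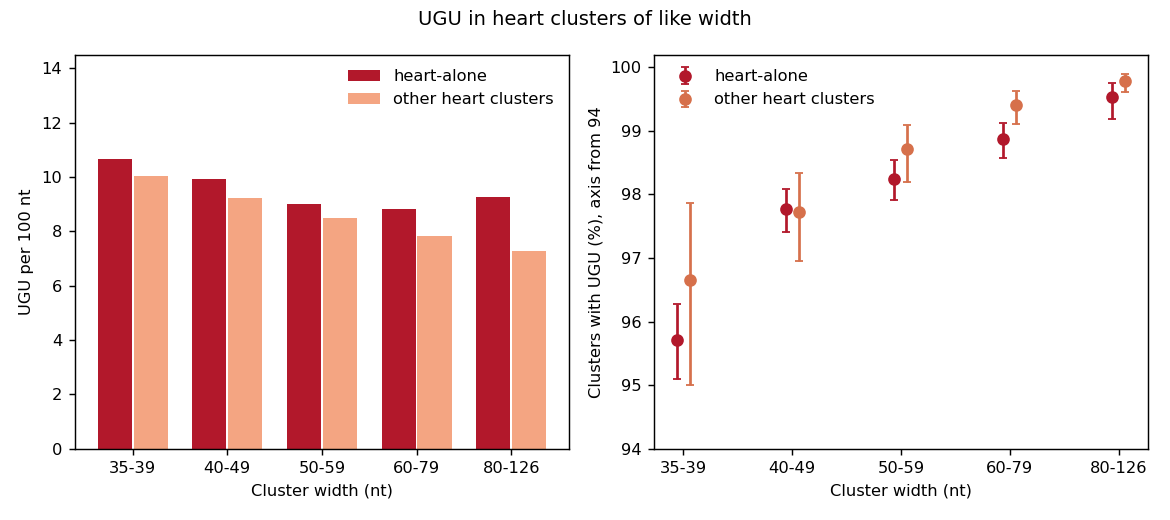
UGU in heart-alone and other heart clusters of like width (x axis, nt). Left, occurrences of UGU per 100 nt, counted with overlaps over all gene parts. Right, share of clusters with at least 1 UGU with exact 95% intervals, on an axis that starts at 94%. The share climbs with width in both sets, to 99.5% of heart-alone and 99.8% of the other clusters at 80 nt and above, and the density is higher in heart-alone clusters in each width class, although it is lower within introns and within 3' UTRs.

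Genes of cardiac excitation, contraction and signalling were counted in 9 lists, and each list's share of heart-alone clusters is set beside 67.5% over all heart clusters. The median share per gene of a list is set beside a median of 80% over all genes with a heart cluster. Numbers of genes without a muscle cluster are to be read beside 33.3% of all genes with a heart cluster (2284 of 6857). Each share is also given without the gene of the list that has the most heart clusters. The list of cardiac ion channels and gap junctions had 530 of 595 heart clusters heart-alone (89.1%, or 84.1% without Cacna1c, with a median of 100% per gene). All 25 of its genes with a heart cluster held a heart-alone one, beside 91.8% of all genes with a heart cluster. Of these 25 genes, 13 had no muscle cluster (52.0%), against 33.3% of all genes with a heart cluster. Besides Cacna1c, Kcnd2, Cacnb2 and Kcnj3, described above, Kcnq1, for a channel of the slow delayed rectifier current, had 23 heart-alone clusters, 19 of them in introns and 4 in coding exons, against 0 in muscle and 0 in C2C12 cells. The gap junction gene Gja1 had 8 of 9, its other heart cluster meeting the 1 C2C12 cluster, and the pacemaker channel gene Hcn4 had 1.

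The 22 calcium handling genes with a heart cluster had 563 of 671 clusters heart-alone (83.9%). Without Ryr2 the share was 74.2%, and the median per gene was 65.5%, below the 80% over all genes. Ryr2 and Sln had no muscle cluster. Ryr2 and Slc8a1 held most of the list's heart-alone clusters. Atp2a2 had 41 of 59, against 15 muscle and 4 C2C12 clusters, and Camk2d, for a calmodulin-dependent kinase, had 40 of 55, against 14 and 3. Pln, for the phospholamban that restrains the calcium pump, had 10 heart clusters, all heart-alone and 8 of them in the 3' UTR, against 1 muscle cluster.

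Of 20 cardiac transcription factor genes with a heart cluster, 11 had no muscle cluster, and 243 of 307 heart clusters were heart-alone (79.2%, or 77.1% without Zfpm2, with a median of 93.5% per gene). After Zfpm2 the highest was Myocd, for the cardiac coactivator myocardin, with 26 heart-alone clusters against 0 in both other libraries. Gata6 had 21, of which 19 lay in 1 intron, Tbx5 had 10, with 5 in introns and 5 in the 3' UTR, Tbx20 had 9, all in the 3' UTR, and Gata4 had 10 of 11, with 0 muscle clusters in each gene. Hand2 and Nkx2-5 had 2 and 1. Tead1 and Prdm16 had 26 and 25 heart-alone clusters, against 22 and 1 in muscle. A window shows an intronic site of the coactivator gene, chosen after its values were seen.
Myocd intron, chr11:65047898-65047927, minus strand: caUGUGUaUGUGUuugguaUGUGUGUGUGU

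**Figure D5:**
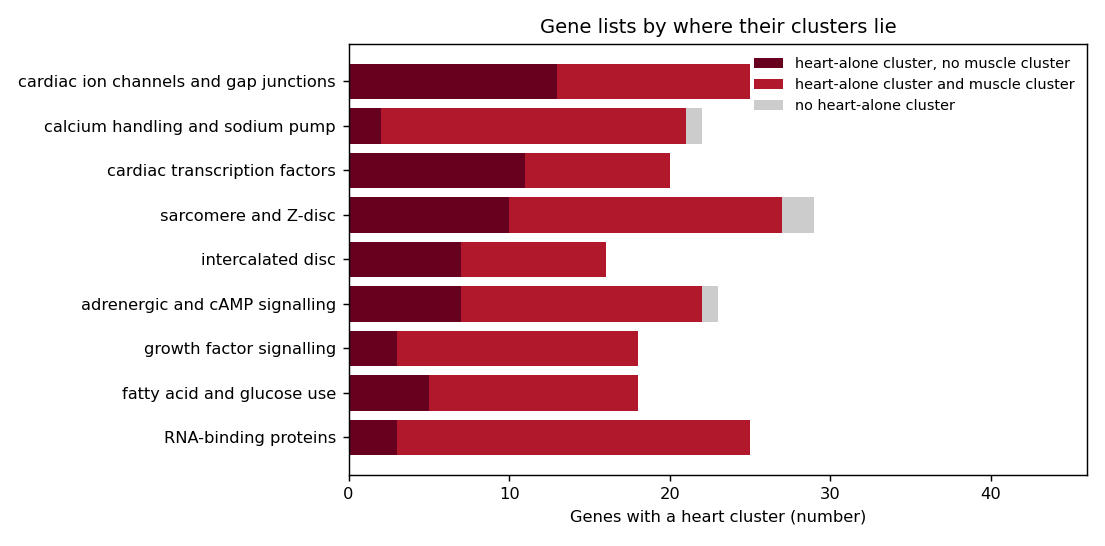
Genes with a heart cluster (x axis, number) in 9 gene lists, split by whether they hold a heart-alone cluster and whether they have any muscle cluster. Of the channel genes 13 of 25 and of the cardiac transcription factor genes 11 of 20 had no muscle cluster, against 2 of 22 calcium handling and 3 of 25 RNA-binding protein genes. Over all genes with a heart cluster the share was 33.3%.

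Contractile and junctional genes were mixed. The sarcomere and Z-disc list had 420 of 698 heart clusters heart-alone (60.2%), below the 67.5% of all heart clusters, but 70.2% without Ttn and with a median of 88.9% per gene. In this list 10 of 29 genes lacked a muscle cluster, close to the 33.3% of all genes with a heart cluster. Those 10 included Myh6 with 21 heart-alone clusters, Mybpc3, for cardiac myosin-binding protein C, with 13, Mylk3, for the cardiac myosin light chain kinase, with 17, all intronic, and Fhl2 with 23 of 25. Ttn, shared by both tissues, had 59 of 184 heart clusters heart-alone, against 177 in muscle. Palld had 50 of 76 and Pdlim5 29 of 61, against 30 and 43 in muscle. In the intercalated disc list 359 of 446 (80.5%, or 74.0% without Ctnna3, with a median of 86.1% per gene) were heart-alone, with Ctnna3 alone holding 163, and 7 of 16 genes lacked a muscle cluster, among them Cdh2, Pkp2 with 12 heart-alone clusters, Dsg2 with 11 and Cxadr with 10, of which 9 were in the 3' UTR. Ctnna1 had 24 of 29, against 3 in muscle, and Ank3, for ankyrin-G, 22 of 50, against 60 in muscle.

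Signalling and metabolic lists lay on either side of the share over all heart clusters. In none of them did the share of genes without a muscle cluster exceed the 33.3% of all genes with a heart cluster. Adrenergic and cAMP signalling had 381 of 467 heart-alone (81.6%, or 77.3% without Pde4d, with a median of 85.7% per gene), and 7 of its 23 genes lacked a muscle cluster, among them the alpha-1 adrenergic receptor genes Adra1a with 12 and Adra1b with 8. Besides Pde4d, Prkg1 had 35 of 39, Akap6, for an anchor of protein kinase A, 31 of 42 and Pde3a 31 of 32, against 9, 13 and 1 in muscle. Growth factor signalling had 175 of 268 (65.3%, or 68.0% without Ghr, with a median of 70.3% per gene) with 3 of 18 genes lacking a muscle cluster. Insr, for the insulin receptor, had 23 of 34, Igf1r 22 of 28 and Ghr 20 of 40, against 12, 10 and 26 in muscle. Fatty acid and glucose use had 150 of 232 (64.7%, or 63.5% without Ppargc1b, with a median of 63.7% per gene), with Ppara, for a nuclear receptor of lipid use, and Ppargc1b at 21 each, Cd36, for a fatty acid transporter, at 17 and Ppargc1a at 15, and 5 of 18 genes lacking a muscle cluster.

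RNA-binding protein genes had the lowest share of the 9 lists. Here 328 of 641 heart clusters were heart-alone (51.2%, or 48.2% without Celf2, with a median of 50.8% per gene), and 3 of 25 genes, among them Cpeb2 and Zfp36l1, had no muscle cluster. Celf2, a paralog of Celf1, had 64 of 93, of which 57 were in introns and 7 in the 3' UTR. Muscle had 33 in Celf2, of which 20 were in the 3' UTR, and 27 heart clusters of Celf2 met a muscle cluster. The other heart clusters of Celf2 and its muscle clusters both had a median position of 536 kb from the gene start. Msi2 had 42 of 69, Qk 33 of 65 and Cpeb3 24 of 46, against 42, 38 and 24 in muscle. In Qk 26 of the 33 heart-alone clusters were intronic, and 33 of all 38 muscle clusters were in the 3' UTR. The 32 other heart clusters of Qk met muscle clusters. Their median position was 107.7 kb from the gene start, beside 108.3 kb for the muscle clusters. Celf1 itself had 6 of 21, against 22 in muscle, and Mbnl1, for the muscleblind protein that acts on many of the same transcripts, 10 of 40, against 53 in muscle.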

How the data were processed

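Cluster lists were used as deposited, 1 per library. According to the labels and the paper's methods, identical reads were collapsed by the authors, mapped to mm9 with Bowtie and TopHat (versions not given in the sources used here), kept unique matches and called clusters per library. The further column the authors deposited is another value, 1e-06 for each cluster, of unstated meaning, and was not used. Genes were matched to GENCODE vM1 on NCBIM37 by Entrez identifier and symbol (7981 of 8037, with names from a later RefSeq table).

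A heart cluster sharing at least 1 base on the same strand with a muscle or C2C12 cluster was not heart-alone. Gene parts were taken at the midpoint, in the order 3' UTR, coding exon, 5' UTR and intron. Shares carry exact 95% Clopper-Pearson intervals. Differences were tested by two-sided Fisher's exact tests, Benjamini-Hochberg adjusted over 5, after tests on simulated data. Members and the 20 gene lists were chosen with earlier results of these data known. Named were the 10 genes with most heart-alone clusters without and with a muscle cluster, the 5 leaders per mRNA part and among muscle-bound genes without overlap, and the 4 leaders per list. Sequence windows leave out genes on chromosome 18. Further genes were named after their values were seen. Alternatives changed the overlap rule, minimum width, part priority, duplicated positions and leading genes. Python 3.11.15, pandas 2.3.3, scipy 1.17.1, statsmodels 0.14.6, pysam 0.24.0 and samtools 1.23.1 were used. Some members are not reported here.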

Additional observations from a re-analysis of the deposited data

How the results depend on the processing

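The number of heart-alone clusters lay between 25054 and 31001 over the alternatives, and the number of genes without a muscle cluster between 2225 and 3228. The share of heart-alone clusters in genes without a muscle cluster, 22.1% as reported, was 20.6% when at least 50% of both clusters had to be shared, 23.55% when clusters within 50 nt counted as shared, 24.4% with clusters of at least 40 nt and 33.4% when a gene needed at least 2 muscle clusters. The intron share of 69.2% became 66.6%, 71.3% and 67.5% under the first 3 of these, 69.9% with overlapping heart clusters merged or with distinct positions only (added after the data were seen), 68.0% without the 10 leading genes and 71.8% with introns given priority. The 3' UTR share of 21.6% became 24.5%, 19.3% and 23.3% under the same first 3, 22.6% without the leading genes and 19.5% with introns given priority. The UGU share was 98.4% for clusters of at least 40 nt. Within width classes added after the data were seen, the UGU comparison with other heart clusters lost its call at 35 to 39 nt (odds ratio 0.775), 50 to 59 nt (0.734) and 80 nt and above (0.453), and turned round at 40 to 49 nt (1.02, without a call). Otherwise no comparison changed its direction or call, and the intron odds ratio stayed between 2.21 and 4.12. The number of reads behind a cluster limits all of these values and is unknown. No paired analysis was possible because each group has 1 library.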

Other observations

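Beyond the lists, some heart-alone clusters lay past the annotated end of their gene. They numbered 122 over 50 genes, led by Slc8a1 with 19, the kinase gene Aak1 with 8 and Zfp871 with 7. Widely expressed genes also stood among those without a muscle cluster. Map4k4, for a kinase, had 28 heart-alone clusters against 0 in muscle and 4 in C2C12 cells, none of which met a heart cluster. Sptan1, for alpha-II spectrin, had 18, of which 11 lay within 300 nt of an exon, against 0 in both. These genes were chosen after their values were seen.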
